A study of Rattus norvegicus with 20 samples.

Results

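Immediate early genes are the first genes a cell transcribes after a stimulus, before any new protein is made. Growth factors, hormones, stretch, calcium entry and nerve activity switch them on through transcription factors that already sit on their promoters, and their mRNAs are short-lived, so their level follows the minutes to hours before the tissue was taken. In brain they are read as marks of recent neuronal activity, and in heart they respond to catecholamines and to load.

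Expression of 10 of them was followed here, out of 24160 features counted: Fos (ENSRNOG00000008015), Fosb (ENSRNOG00000046667), Egr1 (ENSRNOG00000019422), Egr2 (ENSRNOG00000000640), Jun (ENSRNOG00000026293), Junb (ENSRNOG00000042838), Nr4a1 (ENSRNOG00000007607), Arc (ENSRNOG00000043465), Atf3 (ENSRNOG00000003745) and Dusp1 (ENSRNOG00000003977). They were chosen by name and identifier, with no measured value in the rule, though with earlier results of these data known, and all 10 identifiers were in the count table. The identifiers are the table's own, and the gene names came with the choice of members.

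The libraries came from 10 male Sprague-Dawley rats of 250 to 300 g in a rat model of stress cardiomyopathy (SCM), a heart disease that follows emotional or physical stress. The SCM rats were immobilized for 6 hours, over 7 days, and the control rats were not described as stressed. Each of the 5 control and 5 SCM rats gave 1 library of left ventricle (LV) and 1 of brain, so the 20 libraries form 4 groups of 5. The rats of both groups were anesthetized, with no agent named, and no genetic change, other drug or age is given for any group. The part of the brain, the time of day and the time between the last immobilization and tissue collection are not stated in the sources used here. Both tissues are bulk RNA, in which more cells of a type and more mRNA per cell cannot be told apart.

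The libraries held 22386526 to 36251990 counts, and 3 counts were worth at most 0.134 CPM, the unit of level used throughout (counts scaled to a common library size). The 10 most abundant features took 27.2 to 33.0% of LV counts and 7.76 to 11.1% of brain counts. In 5 of 40 gene-by-group sets of 5 CPM values 1 library lay apart by Dixon's limit. These were control rat 1 for Fos and Egr1 and control rat 2 for Atf3 in LV, SCM rat 5 for Fosb in LV, and SCM rat 3 for Egr2 in brain. Independent sets of normally distributed values would give about 2. The genes share the same rats, so the 40 sets are not independent, and whether 5 is an excess was not tested. On the scale of log2(CPM + 0.5) there were 0 of 40. Markers of heart, brain and other cell types were not analysed here, because their names could not be joined to the identifiers, so the labelled tissues were not checked against them.

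The promoters show which of the known control letters sit near each gene's start. RefSeq promoter windows of build GRCr8, from 250 bases before to 50 after the start, were matched for 6 of the 10 genes (Fosb, Egr1, Egr2, Junb, Nr4a1 and Dusp1). The cyclic AMP response element (CRE), TGACGTCA, is bound by CREB, and TGACG is its core and overlaps it. The CArG box is bound by serum response factor. All motifs were searched on both strands, capitals mark CRE, CRE core and CArG box letters, and these 4 windows are shown because they differ in which of these motifs they hold or in the number of copies:
Egr2 (chr20:21054392-21054691, minus strand): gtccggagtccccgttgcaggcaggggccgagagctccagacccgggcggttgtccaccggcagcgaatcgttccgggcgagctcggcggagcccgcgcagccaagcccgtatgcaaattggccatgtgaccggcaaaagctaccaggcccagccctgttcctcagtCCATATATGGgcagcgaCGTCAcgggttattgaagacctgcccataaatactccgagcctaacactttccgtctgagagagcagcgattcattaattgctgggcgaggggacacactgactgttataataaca
Junb (chr19:40080876-40081175, plus strand): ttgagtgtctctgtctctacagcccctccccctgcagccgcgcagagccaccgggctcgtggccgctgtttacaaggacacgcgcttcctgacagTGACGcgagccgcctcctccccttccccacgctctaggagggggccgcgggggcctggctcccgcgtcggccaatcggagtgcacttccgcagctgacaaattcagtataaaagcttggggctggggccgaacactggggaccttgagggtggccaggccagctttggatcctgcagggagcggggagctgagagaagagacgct
Nr4a1 (chr7:134259888-134260187, plus strand): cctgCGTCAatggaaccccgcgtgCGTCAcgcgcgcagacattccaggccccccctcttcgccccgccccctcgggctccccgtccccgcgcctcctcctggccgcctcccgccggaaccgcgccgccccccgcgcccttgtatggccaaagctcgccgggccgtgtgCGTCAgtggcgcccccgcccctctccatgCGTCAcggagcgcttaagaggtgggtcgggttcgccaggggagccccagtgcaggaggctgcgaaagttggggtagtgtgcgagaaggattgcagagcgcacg
Dusp1 (chr10:17184603-17184902, plus strand): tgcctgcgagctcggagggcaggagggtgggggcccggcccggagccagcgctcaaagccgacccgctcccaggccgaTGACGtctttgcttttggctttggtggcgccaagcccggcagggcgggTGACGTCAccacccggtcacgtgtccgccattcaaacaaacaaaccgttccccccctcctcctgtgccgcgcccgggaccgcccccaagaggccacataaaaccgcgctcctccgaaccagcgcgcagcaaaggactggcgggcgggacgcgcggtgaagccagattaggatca

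The CRE core was in 5 of the 6 windows, against 21.2% of 33469 promoters of the same length. Nr4a1 held 4 copies and Fosb none. The full CRE was in 1 of the 6, Dusp1, where it began 124 bases before the start, against 1.83% of all promoters. CArG boxes were in Egr1 and Egr2, 2 of the 6, against 1.64%. The site of the EGR proteins themselves, GCGTGGGCG, was in 0 of the 6 and in 0.544% of promoters. A TATA box, TATAAA, was in Fosb and Junb, 2 of the 6, against 14.2%. These matches describe letters only.

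All 10 genes had higher fitted levels in the LV of SCM rats than of control rats, but with wide spread between rats, and none passed the test. The comparison asks which genes differ with SCM in the tissue the disease affects. Levels are CPM scaled by TMM within a tissue, and a gene was called at an adjusted p under 0.05 by edgeR's quasi-likelihood test over all 13954 features tested in LV. All 10 passed the filter on low counts in every comparison. Of the members 0 of 10 were called, where 5.17% of all features tested were. At an unadjusted p under 0.05 there were 2 of 10, Fosb and Jun, against 22.9% of all features, and 10.8% counting higher values alone. The median log2 fold change of the 10 was 0.96, beside -0.012 for all features, and the median standard error was 0.50 beside 0.16. The study also asks for a log2 fold change beyond 2 in size, and for significant change in both tissues. With the size limit added in LV alone, 0 of 10 were called, against 0.186% of all features.

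Fos, Fosb, Jun and Junb are subunits of the transcription factor AP-1. Fos, which pairs with Jun proteins, stood at 29.7, 10.8, 4.49, 6.27 and 8.12 CPM in the LV of control rats 1 to 5. In the LV of SCM rats 1 to 5, Fos stood at 29.8, 7.94, 17.7, 26.3 and 79.7 CPM. The groups overlapped: control rat 1 was as high as SCM rat 1, SCM rats 2, 3 and 4 lay inside the control range, and SCM rat 5 was far the highest. Fos had a log2 fold change of 1.44 (SE 0.70, 95% interval -0.14 to 3.01), with an edgeR adjusted p of 0.258. It was 0.78 without SCM rat 5 and 2.12 without control rat 1.

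Fosb, its close relative, had the smallest p of the 10. It stood at 3.43, 2.24, 1.68, 2.59 and 2.77 CPM in control LV and at 3.54, 5.37, 3.14, 4.02 and 11.9 CPM in SCM LV. Only SCM rat 3 fell below the highest control rat. Its log2 fold change was 1.13 (SE 0.36, interval 0.35 to 1.91), with an edgeR adjusted p of 0.0856 and an exact permutation p of 0.0159, where 0.00794 is the smallest that 5 rats against 5 allow. With 1 rat left out, that fold change ran from 0.66, without SCM rat 5, to 1.29, without SCM rat 3.

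Jun, the AP-1 partner of the Fos proteins, stood at 113, 149, 101, 114 and 81.9 CPM in control LV and at 271, 141, 130, 142 and 178 CPM in SCM LV. The SCM rats were all above 4 of the control rats, and control rat 2 lay among them. The log2 fold change was 0.63 (SE 0.21, interval 0.16 to 1.10), with an edgeR adjusted p of 0.109. Junb, which competes with Jun for the same partners, stood at 92.4, 44.6, 39.6, 49.3 and 21.4 CPM in controls and at 123, 52.0, 50.9, 49.6 and 157 CPM in SCM. SCM rats 1 and 5 were above every control and the other SCM rats lay inside the control range, and the log2 fold change of 0.81 had an SE of 0.47 and an edgeR adjusted p of 0.347. Without SCM rat 5 the fold change of Junb was 0.48, and without control rat 1 it was 1.16.

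The zinc finger factors Egr1 and Egr2 followed the same rats. Egr1 stood at 50.2, 22.1, 14.2, 17.7 and 10.9 CPM in control LV and at 139, 11.5, 21.7, 31.3 and 120 CPM in SCM LV. SCM rats 1 and 5 were above every control, while SCM rat 2 was near the lowest control. Its log2 fold change of 1.48 had the largest SE of the 10 in LV, 0.75, with an edgeR adjusted p of 0.276.

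Egr2, known for its part in myelination, was low throughout. It stood at 1.44, 1.38, 0.949, 0.608 and 0.744 CPM in control LV and at 4.77, 0.428, 1.22, 1.79 and 2.93 CPM in SCM LV. SCM rat 2 was the lowest of all 10 rats, and SCM rats 1, 4 and 5 were above every control. Egr2 had a log2 fold change of 1.11 (SE 0.52), with an edgeR adjusted p of 0.227. That fold change was 0.63 without SCM rat 1 and 1.38 without SCM rat 2.

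Atf3, a stress-responsive factor of the ATF/CREB family, stood at 6.98, 34.4, 7.27, 7.58 and 2.74 CPM in control LV. In SCM LV it stood at 58.4, 13.0, 11.6, 22.7 and 37.2 CPM. Control rat 2 alone reached the SCM range, and 4 of 5 controls were below every SCM rat. Atf3 had a log2 fold change of 1.28 (SE 0.72, interval -0.35 to 2.91), with an edgeR adjusted p of 0.331, and of 2.22 without control rat 2.

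Nr4a1, an orphan nuclear receptor also called Nur77, stood at 64.3, 28.9, 29.6, 34.4 and 9.31 CPM in control LV and at 54.3, 26.1, 32.7, 31.9 and 103 CPM in SCM LV. Control rat 1 was above 4 of the 5 SCM rats. Its log2 fold change was 0.57 (SE 0.53, edgeR adjusted p of 0.563), and 0.12 without SCM rat 5.

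Dusp1, a phosphatase that switches off MAP kinases, stood at 170, 106, 92.3, 135 and 118 CPM in control LV and at 116, 151, 104, 101 and 236 CPM in SCM LV. Here the ranges were almost the same apart from SCM rat 5. The log2 fold change was 0.19 (SE 0.25, interval -0.36 to 0.74, edgeR adjusted p of 0.694), and it was -0.073 without SCM rat 5. Arc, which acts at synapses and is best known from neurons, stood at 4.23, 2.24, 6.96, 4.48 and 3.45 CPM in control LV and at 8.69, 5.25, 3.94, 3.86 and 5.61 CPM in SCM LV. The Arc ranges overlapped broadly, with a log2 fold change of 0.35 (SE 0.30, edgeR adjusted p of 0.520). Arc was at 0.13 without SCM rat 1 and at 0.60 without control rat 3.

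**Figure D1:**
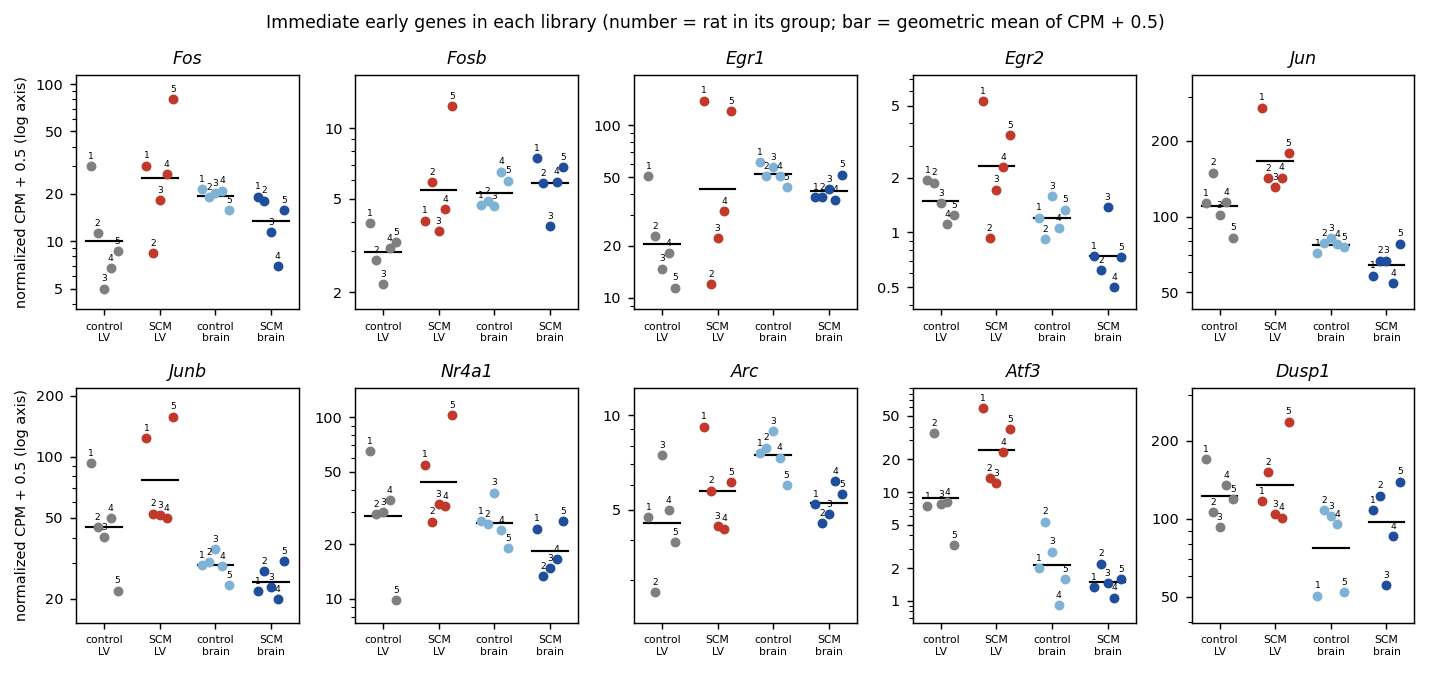
Level of each gene in each library as TMM-scaled CPM plus 0.5 on a log axis, with points numbered by rat within its group and a bar at the geometric mean of each group of 5 (scaled within each tissue, so LV and brain points are not on one scale). In LV, SCM rats 1 and 5 and control rat 1 lie high for several genes (Egr1 at 139, 120 and 50.2 CPM), while most brain points lie close together.

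No gene separated the groups in LV: for 0 of 10 were all SCM rats on one side of all control rats, where that held for 7.6% of all features tested. The LV values moved when single rats were left out. Without SCM rat 5, the median log2 fold change of the 10 was 0.64 and 9 of 10 were positive. Without SCM rat 1 the median was also 0.64, with 10 of 10 positive. Without control rat 1 it was 1.15. The count of genes with an unadjusted p under 0.05 was 6 of 10 without control rat 1, against 19.7% of all features, 5 without SCM rat 2, against 19.8%, and 2 or 3 without any other rat, against 19.2 to 25.1%. None of the 10 was called in any fit without 1 rat.

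In the brain, the fitted levels leaned the other way, by less. Of the 10 genes, 8 had lower and 2 (Fosb and Dusp1) higher fitted levels in SCM rats. Egr2, one of the 8, passed the filter on low counts mostly through control libraries, so its place among them is not independent of that filter. Again 0 of 10 were called, where 0.175% of the 16002 features tested were. At an unadjusted p under 0.05 there were 3 of 10, Arc, Egr1 and Jun, all lower in SCM, against 14.2% of all features and 7.41% counting lower values alone. That count was 5 without any one of control rat 5 and SCM rats 1, 2 and 5, against 11.8 to 12.7% of all features. It was 3 or 4 without any other rat, against 11.1 to 18.6%. The median log2 fold change was -0.40 beside 0.0031 for all features. With at least 10 counts required of each library, which left Egr2 out, it was -0.34 over 9 genes. With the study's added limit on the fold change, 0 of 10 were called in brain, and 0% of all features.

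Arc had the smallest p in brain, the tissue where its transport to active synapses is best known. It stood at 7.09, 7.39, 8.37, 6.82 and 5.48 CPM in control brain and at 4.73, 4.04, 4.35, 5.67 and 5.11 CPM in SCM brain. Only control rat 5 reached down into the SCM range. The log2 fold change of Arc was -0.56 (SE 0.16, interval -0.90 to -0.21), with an edgeR adjusted p of 0.168 and an exact permutation p of 0.0159.

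Egr1 stood at 60.5, 49.96, 56.8, 50.2 and 43.3 CPM in control brain and at 37.6, 37.8, 42.3, 36.6 and 51.2 CPM in SCM brain. Of the SCM rats, 4 were below every control and rat 5 lay among them. The log2 fold change was -0.34 (SE 0.11, edgeR adjusted p of 0.216). Jun stood at 71.2, 78.0, 81.3, 77.2 and 75.3 CPM in control brain and at 57.7, 66.4, 66.3, 54.0 and 77.5 CPM in SCM brain. SCM rat 5 was again the one among the controls, and the log2 fold change was -0.25 (SE 0.091, edgeR adjusted p of 0.247).

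Fos stood at 20.9, 18.7, 19.9, 20.5 and 15.4 CPM in control brain and at 18.7, 17.7, 10.98, 6.46 and 15.3 CPM in SCM brain. SCM rat 4 was the lowest and SCM rats 1 and 2 lay inside the control range, with a log2 fold change of -0.46 (SE 0.24, edgeR adjusted p of 0.391). With 1 rat left out, the fold change of Fos ran from -0.60 to -0.28. Nr4a1 stood at 26.2, 25.4, 38.0, 23.4 and 18.5 CPM in control brain and at 23.9, 12.8, 14.3, 16.1 and 26.2 CPM in SCM brain. SCM rats 2, 3 and 4 were below every control, with a log2 fold change of -0.50 (SE 0.23, edgeR adjusted p of 0.354).

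Junb ran from 22.7 to 34.7 CPM in control brain and from 19.4 to 30.2 CPM in SCM brain, with a log2 fold change of -0.27 and an edgeR adjusted p of 0.381. Fosb stood apart from its relatives in sign, with 4.15 to 6.03 CPM in control and 3.33 to 6.94 CPM in SCM brain, a log2 fold change of 0.17 and an edgeR adjusted p of 0.727. Dusp1 had high and low libraries in both groups. It stood at 50.1, 107, 102, 94.8 and 51.8 CPM in control brain and at 107, 122, 55.0, 85.1 and 139 CPM in SCM brain, with a log2 fold change of 0.32 (SE 0.30, edgeR adjusted p of 0.656).

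Egr2 and Atf3 were low in brain. Egr2 had 12 to 30 counts per control library and 7, 4, 24, 0 and 5 counts in the SCM libraries, and it passed the filter on low counts through 6 libraries, the 5 controls and SCM rat 3. Its log2 fold change of -1.30 had an SE of 0.68 and an edgeR adjusted p of 0.398, and it was -2.28 without SCM rat 3. Atf3 stood at 1.49, 4.84, 2.33, 0.416 and 1.08 CPM in control brain and at 0.828, 1.69, 0.951, 0.571 and 1.10 CPM in SCM brain. Control rats 2 and 3 were above every SCM rat and control rat 4 below every one, with a log2 fold change of -0.98 (SE 0.53, edgeR adjusted p of 0.411), and of -0.36 without control rat 2. For 0 of 10 genes were the brain groups apart without overlap, against 3.86% of all features tested.

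**Figure D2:**
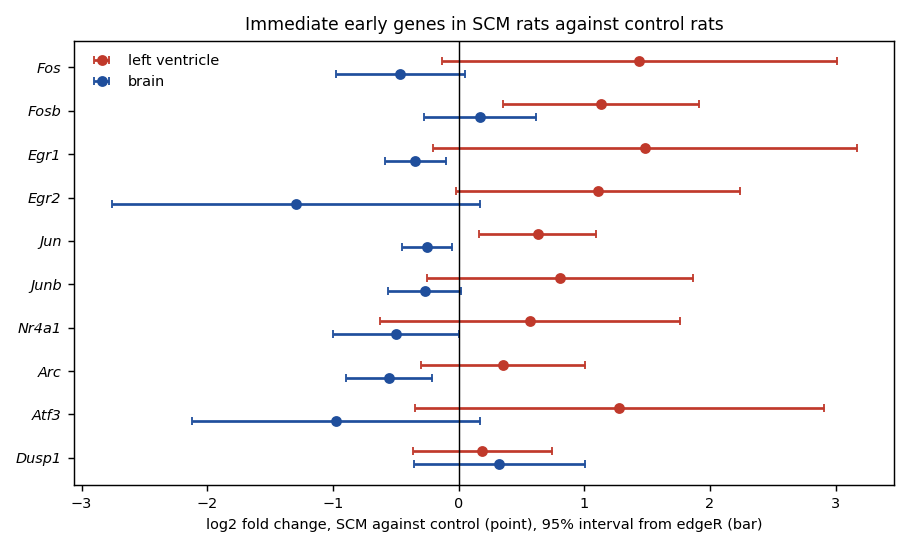
Log2 fold change of each gene in SCM against control rats (points) in LV (red) and brain (blue), with the 95% interval of the edgeR fit (bars). All 10 LV points are above 0 and 8 of 10 brain points are below it, and the unadjusted intervals leave out 0 for Fosb and Jun in LV and for Egr1, Jun and Arc in brain.

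The difference between the tissues in the effect of stress was then tested itself, by an interaction term in a fit that kept each rat as a block. Of the 10 genes 0 were called, where 0.73% of the 16720 features tested were. At an unadjusted p under 0.05 there were 9 of 10, all with a smaller SCM-to-control ratio in brain than in LV, against 13.9% of all features and 5.62% in that direction. That count was 6 without SCM rat 1, against 11.7% of all features, and 6 without SCM rat 5, against 12.1%. It was 7 to 9 without any other rat, against 11.5 to 15.4%. These 9 estimates rest on the same 20 libraries, and pairs of these genes correlate between rats, so they are not 9 independent results. Jun had the smallest p, with a log2 difference of -0.83 (SE 0.23, edgeR adjusted p of 0.127). Atf3 had -2.16 (SE 0.64, edgeR adjusted p of 0.154) and Nr4a1 -1.10 (SE 0.36, edgeR adjusted p of 0.195).

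For the other 6 genes of the 9, the log2 difference was -1.93 for Fos, -2.57 for Egr2, -1.41 for Egr1, -1.03 for Junb, -0.90 for Arc and -0.82 for Fosb, and their edgeR adjusted p ran from 0.216 for Fos to 0.348 for Egr1. Dusp1 was the exception, with 0.21 (interval -0.54 to 0.96). The median of the 10 was -1.06 beside 0.055 for all features.

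Between the tissues, most of these genes were lower in brain, in a comparison that called most features. In control rats, 6 of 10 were called, all lower in brain than in LV of the same rat, where 79.6% of the 15909 features tested were called and 37% were called lower. The median over all features was 0.12, and the values below are log2 differences, brain minus LV. Atf3 was lowest in brain relative to LV, at -3.21 (SE 0.39, edgeR adjusted p of 0.000124), or 0.108 times its LV level. Dusp1 differed by -1.49 (SE 0.28), Junb by -1.46 (SE 0.24), Jun by -1.35 (SE 0.12), Egr2 by -1.31 (SE 0.44) and Nr4a1 by -0.98 (SE 0.30), with edgeR adjusted p of 0.00169, 0.000715, 1.94e-05, 0.0235 and 0.0175.

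The calls for Egr2 and Nr4a1 in control rats rested on few rats. Egr2 had an edgeR adjusted p of 0.0788 without control rat 1 and 0.0769 without control rat 2, and Nr4a1 had 0.0610 without control rat 4. Fos (0.17), Fosb (0.12), Egr1 (0.55) and Arc (-0.046) were not called. Egr1 was called higher in brain without control rat 1, at 0.83 and an edgeR adjusted p of 0.00321, with at least 10 counts required of each library (0.66, 0.0444) and by DESeq2 (0.60, 0.0296). For Arc the interval was -0.59 to 0.50.

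In SCM rats, 9 of 10 were called lower in brain than in LV, where 79.4% of the 15764 features tested were called and 35.7% were called lower. The median over all features was 0.16. Atf3 differed by -5.35 (SE 0.45, edgeR adjusted p of 4.59e-06) and Egr2 by -3.84 (SE 0.83, edgeR adjusted p of 0.0023). Egr2 had 113, 11, 41, 56 and 74 counts in the LV of SCM rats, and it passed the filter on low counts through these and 1 brain library (SCM rat 3), so its place among the 9 is not independent of that filter. The AP-1 genes Junb, Jun, Fos and Fosb differed by -2.48, -2.17, -1.75 and -0.69. Nr4a1 differed by -2.07 (SE 0.15), Dusp1 by -1.27 (SE 0.13) and Arc by -0.94 (SE 0.24).

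Egr1 was not called in SCM rats, at -0.85 (SE 0.51, edgeR adjusted p of 0.159). It was -0.39 without SCM rat 1, with an edgeR adjusted p of 0.421, the highest over its alternatives, and it was called at -1.32 without SCM rat 2, by limma-voom (adjusted p of 0.0344) and with no rat block (edgeR adjusted p of 0.0469). The Fosb call, with an edgeR adjusted p of 0.0429, was lost without any one of SCM rats 2, 3, 4 and 5, with values from 0.0563 to 0.171, and also with no filter (0.0546) and with at least 10 counts required of each library (0.0735). Fos, Fosb and Arc were called in SCM rats and not in control rats. Whether that differs is what the interaction tested, and it called none of the 3.

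On 1 scaling over all 20 libraries, each gene can be ordered over the 4 groups. SCM LV was the highest group mean for all 10. Jun stood at 226 CPM in SCM LV, 149 in control LV, 57.8 in control brain and 48.7 in SCM brain. Junb, Nr4a1, Egr2, Atf3, Fos and Arc had the same order, and Atf3 ran from 37.4 to 0.778 CPM. Fos stood at 42.2 CPM in SCM LV and at 15.9, 14.4 and 10.5 CPM in control LV, control brain and SCM brain, and the middle 2 were not called by the test above, nor were those of Arc. The mean of Fos in control LV held control rat 1 at 40.0 CPM and the other 4 rats at 5.96 to 14.2 CPM, and the fit within rats put Fos higher in control brain, at 0.17. Dusp1 stood at 186 CPM in SCM LV, 166 in control LV, 77 in SCM brain and 61.3 in control brain. The SCM LV mean of Dusp1 held SCM rat 5 at 306 CPM and the other 4 rats at 134 to 200 CPM, where control LV ran from 122 to 229 CPM. Fosb stood at 7.32 CPM in SCM LV and at 4.14, 3.66 and 3.39 CPM in SCM brain, control brain and control LV. Egr1 was at 84.3 CPM in SCM LV, 39.3 in control brain, 31.1 in SCM brain and 30.8 in control LV. For every gene the step between SCM and control of one tissue was not called by the tests above.

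The spread between rats was larger in LV for most of these genes than for most features. As the standard deviation (SD) of log2(CPM + 0.5), the median over the 10 genes was 0.64 in control LV and 0.80 in SCM LV, beside 0.23 and 0.22 over all features tested. In control brain it was 0.22 beside 0.17, and in SCM brain 0.37 beside 0.21. In SCM LV, 9 of the 10 genes had an SD above that of 94.3 to 99.9% of features whose mean log2 level was within 0.5 of theirs, and Arc above that of 79.9%. Egr1 had the largest SD there, 1.55, and its highest LV library was at 139 CPM where its lowest was at 11.5. In control LV, Atf3 had the largest SD, 1.24, and Fos, Egr1, Junb, Nr4a1 and Atf3 were above 98.1 to 99.2% of features of like level. Arc, Jun and Dusp1 were above 82.9 to 87.9% there, and Fosb and Egr2 above 42.6 and 38.0%, with SDs under the median of like features.

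In brain, Dusp1 and Nr4a1 were wide in both groups. Dusp1 had SDs of 0.54 and 0.52 in control and SCM brain, above 98.6 and 99.2% of features of like level. Nr4a1 had 0.37 and 0.45, above 95.6 and 94.4%. Atf3 was wide in control brain alone, with 0.95, and Fos in SCM brain alone, with 0.61. Jun had an SD of 0.070 in control brain, below most features of its level, and Arc 0.17 in SCM brain. The SDs are descriptions of 5 rats and were not tested.

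**Figure D3:**
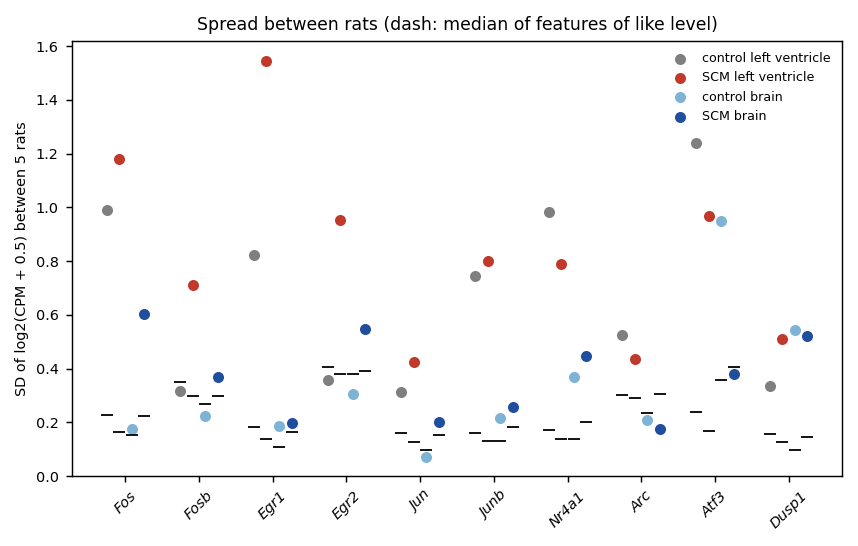
SD of log2(CPM + 0.5) between the 5 rats of each group for each gene (coloured points), with a dash for the median SD of features of like mean level in that group. In SCM LV all 10 points lie above their dash, by most for Egr1 (1.55 against 0.14), while Jun in control brain (0.070) lies under its dash.

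Many of the genes deviated in the same direction in the same rats in LV. For each rat the deviation from the mean of its own group was taken, so that a difference between SCM and control could not make 2 genes agree. In LV, SCM rat 5 was above its group mean for 10 of 10 genes and control rat 1 for 9 of 10, with median deviations of 0.93 and 0.44 on the log2 scale. SCM rat 1 was above for 8 of 10, with a median of 0.68. SCM rat 3 was above for 0 of 10, and SCM rat 4 and control rat 5 for 1 each. SCM rat 2 was above for 3 of 10, with the lowest median in LV, -0.63. The high rats had LV totals of 26224084 (SCM 5), 36251990 (control 1) and 25390349 (SCM 1) counts, which hold the largest and smallest LV totals, and 28.3, 28.4 and 27.2% of counts in the 10 most abundant features. The part of depth in the pattern was not tested.

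**Figure D4:**
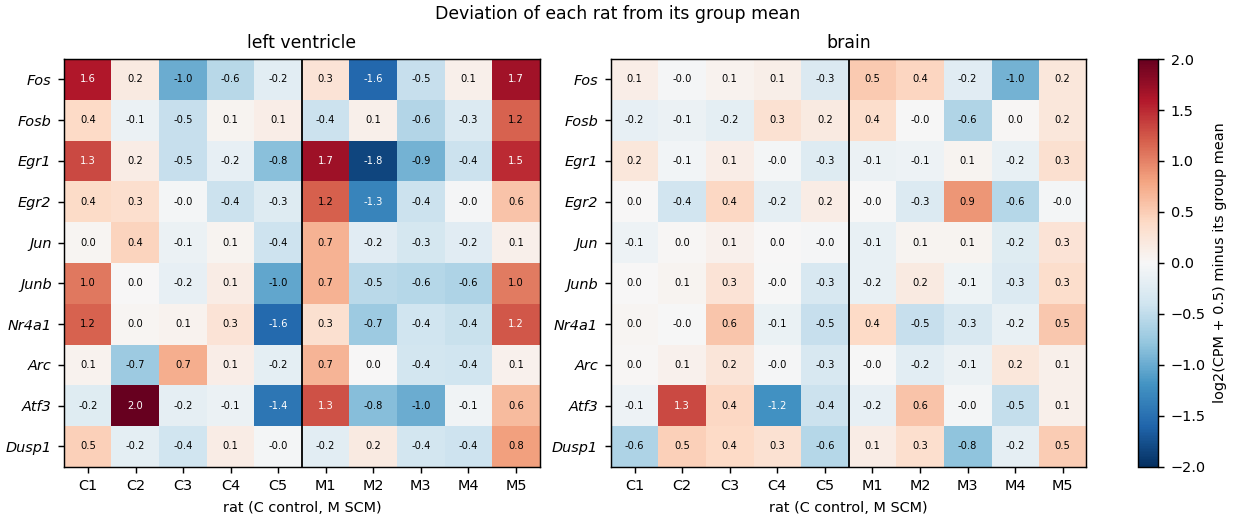
Deviation of each rat (columns, C control and M SCM) from the mean of its group for each gene (rows), in log2(CPM + 0.5), in LV (left) and brain (right). In LV, M5 was above its group mean for 10 of 10 genes and M3 for 0 of 10, and the other columns were mixed to differing degrees (C4 at 6 of 10).

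Of the 45 pairs of genes in LV, 43 had a positive Pearson r over the 10 rats, with a median of 0.55 and a range of -0.074 to 0.95. Over all 97350081 pairs of features tested in LV, 50% were positive. By exact two-sided permutation within groups and Benjamini-Hochberg adjustment over 90 pairs (45 in each tissue), 7 pairs were called. The family is made of these genes' own pairs, so the adjustment says nothing of other genes. The lowest r among the called pairs was 0.80, and 0.843% of all pairs of features reached it. By Spearman rho, 0 pairs were called, with a lowest adjusted exact permutation p of 0.0844, and 12 had an unadjusted p under 0.05. No share over all pairs of features was computed for rho, so that count has nothing to be read against.

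Egr1 was in 4 of the 7 called pairs. Junb and Nr4a1 had r = 0.95 (rho 0.94, exact permutation p of 0.000764, adjusted p of 0.0219), and r was 0.89 without the 2 rats farthest from the median of the first gene. Egr1 and Egr2, the zinc finger factors, had r = 0.92 (rho 0.88, exact permutation p of 0.000972, adjusted p of 0.0219), and 0.86 without 2 rats. Egr1 and Junb had r = 0.89 (rho 0.79) and Egr1 and Nr4a1 had r = 0.80 (rho 0.83), with exact permutation p of 0.00306 and 0.0034 and an adjusted p of 0.0437 for both. They kept r of 0.84 and 0.79 without 2 rats.

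Fos and Egr1 had r = 0.84 (rho 0.83, exact permutation p of 0.00333, adjusted p of 0.0437). Without 2 rats r was 0.74 with an exact permutation p of 0.116 over the 8 left, and without any 1 rat it ran from 0.77 to 0.95. Jun was called with Atf3, at r = 0.90 (rho 0.90, exact permutation p of 0.000347, adjusted p of 0.0219). Fosb was called with Dusp1, at r = 0.95 (rho 0.88, exact permutation p of 0.000764, adjusted p of 0.0219). Those r were 0.86 and 0.90 without 2 rats.

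Of the pairs of a Fos with a Jun protein, Fos and Junb had r = 0.74, Fosb and Junb 0.51, Fos and Jun 0.37, and Fosb and Jun 0.014, and none of these was called. Egr1 and Jun, not called, had r = 0.73 and rho = 0.88, the rho of Egr1 and Egr2, and Egr1 and Atf3 had r = 0.63 and rho = 0.76. Arc was in no called pair, and its r ran from -0.074 with Fos to 0.40 with Junb. Against the median of the other 9 genes, Egr1 had r = 0.97, Junb 0.88, Nr4a1 0.79, Egr2 0.78, Fos 0.76, Jun 0.66, Atf3 0.56, Dusp1 0.55, Fosb 0.47 and Arc 0.31. For Arc 79.1% of the other features tested had a lower r with the same median, for Fosb 89.2%, and for the other members 93.6% or more. When 1 rat was left out, 0 pairs were called without any one of control rats 2 and 5 and SCM rats 1, 2, 3 and 5, 1 without control rat 3, 3 without control rat 4 or SCM rat 4, and 6 without control rat 1. Over these fits r ran from 0.94 to 0.98 for Junb and Nr4a1, from 0.89 to 0.96 for Fosb and Dusp1, from 0.88 to 0.93 for Egr1 and Egr2, from 0.88 to 0.95 for Jun and Atf3, from 0.86 to 0.94 for Egr1 and Junb, and from 0.73 to 0.88 for Egr1 and Nr4a1. The median r over all 45 pairs ran from 0.38 to 0.62. The median r was 0.48 within the 5 control rats and 0.71 within the 5 SCM rats, a difference that was not tested.

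In the brain, 34 of 45 pairs were positive, against 50% of all pairs of features tested there, with a median r of 0.29 and a range of -0.58, for Fosb and Egr2, to 0.78, for Jun and Junb. No pair was called. At an unadjusted exact permutation p under 0.05 there were 3 of 45: Jun and Junb, Egr1 and Junb (0.74), and Nr4a1 and Arc (0.70). The share of all pairs of features under that limit was not computed. An r of 0.80, the lowest among the called LV pairs, was reached by 0 of the 45 brain pairs. Of all pairs of features tested in brain, 1.52% reached it. The rats above their group mean for most genes were control rat 3 and SCM rat 5, each for 9 of 10, with medians of 0.26 and 0.25. Whether the tissues differ in these r was not tested.

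**Figure D5:**
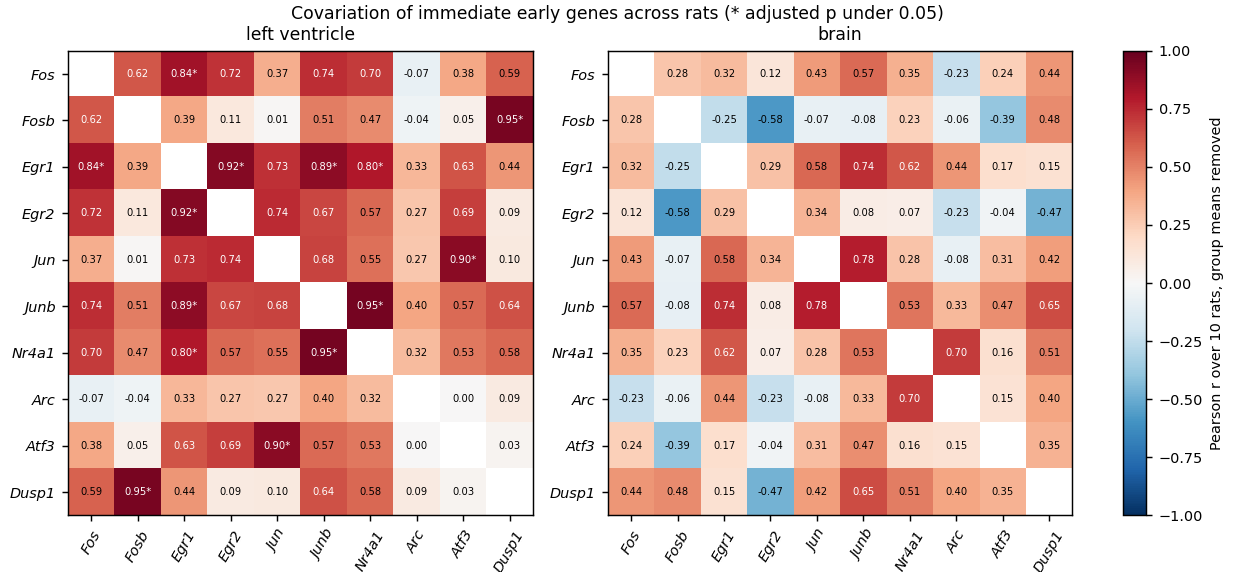
Pearson r between each pair of genes over 10 rats after the mean of each group was removed, in LV (left) and brain (right), with a star for an adjusted exact permutation p under 0.05. The 7 starred pairs are all in LV, 4 of them hold Egr1, and none holds Arc.

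Since LV and brain came from the same rats, each gene was also correlated between them. Over the 10 rats, 8 of 10 genes had a positive r, with a median of 0.29, and 0 were called after adjustment over the 10. Of the 13379 features tested in both tissues, 62.6% had a positive r, with a median of 0.13, and 7.79% had an unadjusted exact permutation p under 0.05, which 1 of the 10 genes had. Nr4a1 had the largest, r = 0.71 (exact permutation p of 0.0285, adjusted p of 0.285) and rho = 0.82 (exact permutation p of 0.0121, adjusted p of 0.121). Without the 2 rats farthest from the median, r was 0.50. SCM rat 5, with the highest Nr4a1 in the LV of SCM rats at 103 CPM, also had the highest in SCM brain at 26.2 CPM, and control rat 5 was the lowest control in both, at 9.31 and 18.5 CPM.

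Other features followed the median deviation of the 10 genes closely. In LV the nearest of 13944 was ENSRNOG00000000572, with r = 0.96 over 10 rats and 3.06 to 7.47 CPM, and the next was ENSRNOG00000008176, with r = 0.91 and 166 to 591 CPM. In brain the nearest of 15992 were ENSRNOG00000053615 (r = 0.96) and ENSRNOG00000019097 (r = 0.93). These are the highest of all these values over the same rats, given as a description, and they are named by identifier alone.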

How the data were processed

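RNA of LV and brain was made into libraries with a NEBNext Ultra RNA kit and sequenced by the authors. The submitters' processing notes name HISAT2, SAMtools, StringTie and the rat build mRatBN7.2. The program that counted reads and its strand setting are not given in the sources used here, so reads of overlapping genes may be shared. The deposited file holds the authors' raw counts per gene, not normalized (23760 Ensembl identifiers and 400 unannotated loci), in 20 libraries, grouped by the labels. Depth (22386526 to 36251990 counts per library) sets the counting error alone.

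The 10 genes and all lists were chosen with earlier results of these data known. Every member is named in every comparison. The 20 lists of other immediate early genes, their regulators and cell type markers (136 names) were not analysed here, because the annotation joins 0 of its names to Ensembl identifiers.

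All features were fitted with edgeR 4.0.16 in R 4.3.3: TMM scaling, filterByExpr (10 counts, 15 in total), robust quasi-likelihood test, Benjamini-Hochberg adjustment over all features tested, and calls at an adjusted p under 0.05. SCM and control were compared within each tissue without a block. Tissue comparisons and the interaction had the rat as a block, since brain and LV of a rat carry the same name. Single genes were also tested by exact two-sided permutation of log2(CPM + 0.5) over all 252 splits. Correlations used group-centred log2(CPM + 0.5), and their shares over all features were added after seeing the data. Promoter windows came from RefSeq on GRCr8, another build than that of the counts, and were used for sequence alone. Alternatives were RLE scaling, other filters, DESeq2 1.42.0, limma-voom (limma 3.58.1), a non-robust fit (chosen after seeing the data), leaving out each rat, a replicate block, 1 fit of all libraries, and another pseudocount or centring. The scripts were tested on simulated data. The p-values treat the rats of a group as separate animals, as the labels name them.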

Additional observations from a re-analysis of the deposited data

Results flagged for a closer look

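In 5 of the 40 groups of 5 CPM values, the highest library lay far from the nearest other. Independent groups of normally distributed values would give about 2, but the genes share the same rats. Control rat 1 stood at 29.7 CPM for Fos in LV, with the other control rats at 4.49 to 10.8, and at 50.2 CPM for Egr1, with the others at 10.9 to 22.1. Control rat 2 stood at 34.4 CPM for Atf3 in LV, with the others at 2.74 to 7.58. SCM rat 5 stood at 11.9 CPM for Fosb in LV, with the other SCM rats at 3.14 to 5.37. SCM rat 3 stood at 0.878 CPM for Egr2 in brain, with the others at 0 to 0.242. On the scale of log2(CPM + 0.5) none of the 40 groups held such a library.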

How the results depend on the processing

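In SCM against control, 0 of the genes tested were called in either tissue under every alternative run except DESeq2 and, in LV, 1 fit of all 20 libraries. Under the strict filter (no library under 10 counts), Egr2 was not tested in brain, in SCM rats between tissues or in the interaction, and 9 of the 10 were tested there. DESeq2 gave Egr2 no adjusted p in brain. DESeq2 called 2 in LV (Fosb at an adjusted p of 0.0209 and Jun at 0.0266), 1 in brain (Arc at 0.0416) and 3 in the interaction (Fos at 0.0374, Jun at 0.0239 and Atf3 at 0.0164). The fit of all 20 libraries called 2 in LV (Fosb at 0.0287 and Jun at 0.0261). Over the whole table DESeq2 called 1625 features in LV, 402 in brain and 560 in the interaction, where edgeR called 721, 28 and 122. The fit of all libraries called 1792 in LV. The interaction called 192 features under the strict filter and 288 with no rat block. In brain, the genes with an unadjusted p under 0.05 were 6 by limma-voom, against 14.7% of all features, and 5 by DESeq2, against 15.5%. There was 1 in the fit of all libraries, against 9.41%, and 3 in the main edgeR fit within brain, against 14.2%. In LV such genes were 5 by DESeq2 (24.7% of all features), 6 in the fit of all libraries (25.9%) and 4 in the non-robust fit (23.2%). The main edgeR fit within LV gave 2 (22.9%). The cause of these differences was not tested. Leaving out 1 rat gave 314 to 1002 calls over all features in LV, 5 to 129 in brain and 20 to 233 in the interaction, with 0 of the 10 genes in each.

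The replicate numbers of control and SCM rats name different animals, and same-numbered libraries did not deviate together (r of -0.079 to 0.15 in LV and -0.22 to 0.14 in brain). With a replicate block, 0 genes of the 10 were called in LV and 0 in brain, and 342 features of the whole table in LV.

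Values that changed sign were all uncalled. Dusp1 in LV ran from -0.073 (without SCM rat 5) to 0.33 when rats were left out, and its interaction from -0.068 (without control rat 1) to 0.42, so that 0 to 1 of the 10 interaction values were positive. In control brain against control LV, Fos was -0.12 by limma-voom and -0.15 with no rat block, and ran from -0.11 to 0.55 when rats were left out (-0.0076 without control rat 4). Arc was 0.062 under the strict filter and ran from -0.26 to 0.090 (0.0098 without control rat 4). When rats were left out, 5 to 6 genes were called in that comparison, with 75.8 to 78.6% of all features, and 8 to 9 in SCM rats, with 75.4 to 77.9%. Every alternative of the comparison in SCM rats was chosen after seeing the data.

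Of the correlations, 11 LV pairs and 4 brain pairs were called without removing group means, 0 to 6 and 0 to 2 when rats were left out, and 7 and 0 with a pseudocount of 2 CPM or RLE scaling. Shares over all pairs of features were not computed for these alternatives. Between tissues of a rat, 0 to 1 genes were called when rats were left out. Egr2 had 0 to 24 counts per library in SCM brain, so its values there have the largest relative counting error of the 10.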
